A study of Mus musculus with 12 samples.

Results

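The ligands of TGF-beta and activin, their main receptors and a set of secreted regulators were followed in the hindlimb and forelimb autopods, the foot and hand plates, of mouse embryos. The members are the 10 genes Tgfb1, Tgfb2, Tgfb3, Tgfbr1, Tgfbr2, Inhba, Inhbb, Fst, Ltbp1 and Ltbp3, and every probe set annotated to exactly 1 of them was taken. This gave 18 of the 22690 probe sets of the Affymetrix MOE430 A design, which covered all 10 genes, and 8 of the 22575 of the B design, which covered 6. RNA came from wild-type embryos of stage E12.5, as 3 hindlimb samples (numbered 12, 14 and 26) and 3 forelimb samples (11, 13 and 25), each hybridised to both designs (12 arrays). Both groups were untreated as far as the labels say, and no label says whether a sample was 1 animal or a pool, and the p-values given here reflect the spread among these samples alone. On the A array the tissue label of forelimb 11 does not name the limb, which was read from the letter in its title. Its Tbx5 signal of 1145 lay near those of forelimb 13 and 25 (1325 and 1381) and above those of the hindlimb samples (29.3 to 174). The distal limb genes Hoxa13 and Hoxd13 and the limb mesenchyme gene Prrx1 were above a signal of 100 in all 6 samples on the A array. The hindlimb genes Tbx4 and Pitx1 summed to 845 to 1263 in hindlimb and to 247 to 341 in forelimb on this array.

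TGF-beta ligands are secreted bound to their own propeptide, and the latent TGF-beta binding proteins Ltbp1 and Ltbp3 tether this complex to the matrix, from which the ligand must be released. Free TGF-beta binds the type II receptor Tgfbr2, which recruits and phosphorylates the type I receptor Tgfbr1, and Smad2 and Smad3 carry the signal to the nucleus. Activins are dimers of the beta subunits encoded by Inhba and Inhbb, signal through related receptors to the same Smads, and are bound and blocked by follistatin, the product of Fst. In the autopod, TGF-beta signals act on digit cartilage, tendon progenitors and interdigital cell death, and in the chick activin acts early in digit formation.

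RefSeq promoter sequences (GRCm38.p6) were available here for 8 of the 10 genes and were not used for Tgfb3 and Fst. Those of Tgfb2 and Inhba are shown because probe sets of these ligands had the most negative differences among the ligands, and that of Tgfb1 as the isoform set beside Tgfb2. Each is the 250 bases before the annotated start, 5′ to 3′ on the gene's strand. Capitals mark matches on either strand to the TATA motif TATAAA, the E-box CACGTG, the cyclic AMP response half-site TGACG and the Smad box CAGAC, and no 2 matches overlap.
Tgfb2 (chr1:186705990-186706239, minus strand): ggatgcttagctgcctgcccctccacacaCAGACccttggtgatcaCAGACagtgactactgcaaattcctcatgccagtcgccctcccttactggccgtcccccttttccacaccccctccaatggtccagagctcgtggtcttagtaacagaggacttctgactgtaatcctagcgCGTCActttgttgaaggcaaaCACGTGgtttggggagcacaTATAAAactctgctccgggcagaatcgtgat
Inhba (chr13:16011601-16011850, plus strand): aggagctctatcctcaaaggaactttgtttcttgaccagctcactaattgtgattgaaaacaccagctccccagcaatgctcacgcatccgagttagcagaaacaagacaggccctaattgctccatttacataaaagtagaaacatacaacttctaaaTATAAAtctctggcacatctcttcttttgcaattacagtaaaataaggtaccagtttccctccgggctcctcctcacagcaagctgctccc
Tgfb1 (chr7:25686752-25687001, plus strand): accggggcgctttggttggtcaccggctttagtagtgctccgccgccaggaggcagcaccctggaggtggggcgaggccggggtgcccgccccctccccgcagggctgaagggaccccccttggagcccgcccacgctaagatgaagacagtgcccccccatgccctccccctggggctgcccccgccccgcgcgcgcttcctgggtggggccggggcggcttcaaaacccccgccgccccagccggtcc
In Tgfb2, TATAAA began 31 bases before the start and CACGTG 51 bases before it. The TGACG match in Tgfb2 lay on the opposite strand (CGTCA as printed), 72 to 68 bases before the start, and there were matches to CAGAC at 221 and 204 bases. In Inhba the single match was TATAAA at 91 bases before the start. The Tgfb1 window held none of the 4 motifs in these letters, and its GC content was 75.2%, against 53.6% for Tgfb2 and 43.2% for Inhba. Among 32851 promoter windows of the same length, 12.37% held TATAAA, 6.02% CACGTG, 17.77% TGACG and 42.19% CAGAC. A match describes the letters of a window, and the arrays did not measure binding at any of them.

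On the A array, Tgfb2, Inhba, Fst and Ltbp3 had lower signals in hindlimb than in forelimb, by 0.34 to 0.68 on the log2 scale over 6 of their 7 probe sets at an unadjusted p under 0.05, while Tgfbr1 leaned the other way. None of these differences passed an adjusted p of 0.05, and these genes are named first because of their values. On the B array the limbs overlapped on the tested probe sets of Tgfb2, Fst and Ltbp3. Signals are MAS5.0 values brought to the same trimmed mean on every array of a design. Each difference is hindlimb minus forelimb in log2(signal + 32), with its standard error from limma (n = 3 per limb). The added 32 makes differences of dim probe sets look smaller than they are. In total 15 of the 18 member probe sets on the A array and 6 of the 8 on the B array reached a signal of 100 on at least 3 of 6 arrays and were tested. By limma with Benjamini-Hochberg adjustment over all probe sets of a design, 0 of the 15 passed on the A array, where 0.0326% of all 15338 tested probe sets did, and 0 of the 6 on the B array, where 0.0117% of 17145 did. At an unadjusted p under 0.05, 6 of the 15 on the A array were lower in hindlimb (background 3.69%) and 0 were higher (background 1.85%), where 5.54% of all probe sets differed in either direction. For the 6 on the B array this was 0 in both directions (background 3.21% lower, 2.33% higher and 5.54% in all). The 3 hindlimb samples lay wholly below the 3 forelimb samples for 4 of the 15 on the A array (background 6.10%) and for 1 of the 6 on the B array (background 6.14%). They lay wholly above for 0 of the 15 (background 4.94%) and 0 of the 6 (background 4.81%). The signs were negative for 11 of the 15 and for 6 of the 6, with a background of 52.2% on each design. Of the 6, the 3 of Ltbp1 and Ltbp3 lay between -0.04 and -0.02 and turned positive under quantile normalization. Several of these probe sets report the same transcript and are not independent: the 3 Tgfb2 and the 3 Tgfbr1 probe sets of the A array are each annotated with 1 shared sequence accession. The members were also chosen with earlier results of these data known, so their counts beside the backgrounds are a description only. The tested A array probe sets of Tgfb2, Inhba, Fst, Ltbp3 and Tgfbr1 kept their signs under every alternative processing that gave a value, and with any 1 sample left out. In bulk tissue, fewer cells of a type and less RNA per cell cannot be told apart.

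**Figure D1:**
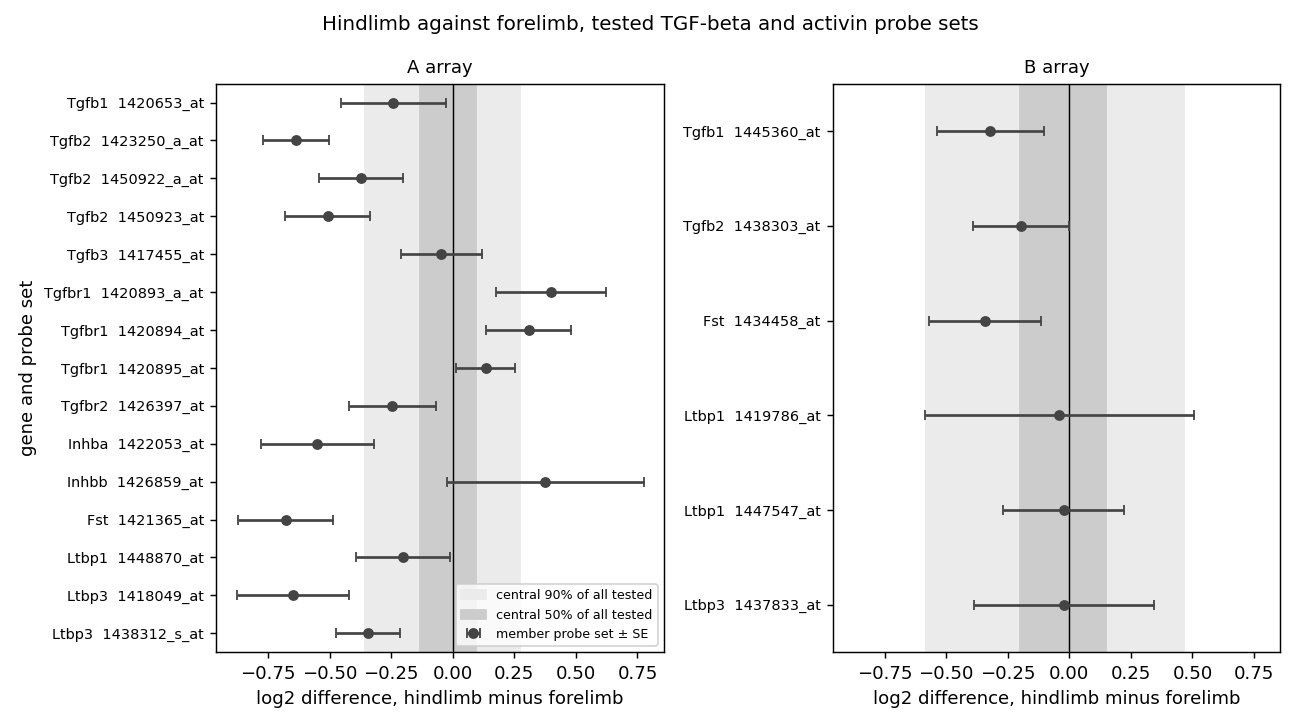
Log2 differences, hindlimb minus forelimb, with standard errors (n = 3 per limb) for the 15 tested probe sets on the A array and the 6 on the B array. Grey bands hold the central 50% and 90% of all probe sets tested on that design. On the A array the probe sets of Tgfb2, Inhba and Fst and 1418049_at of Ltbp3 lie left of the wider band. Right of it lie 1420893_a_at and 1420894_at of Tgfbr1 and the probe set of Inhbb. On the B array all 6 lie inside the wider band.

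Some other measures parted the limbs in the same samples of the A array. The log2 ratio of 3′ to 5′ Gapdh signal, a sign of RNA quality, was -0.28 ± 0.02 in hindlimb and -0.18 ± 0.09 in forelimb (SD, n = 3; exact two-sided permutation p = 0.1, the smallest that 3 against 3 samples can give). The difference of -0.10 became -0.04 without forelimb 13. For beta-actin the ratio was 0.24 ± 0.03 in hindlimb and 0.17 ± 0.08 in forelimb (exact permutation p = 0.3). The limbs overlapped there, and the difference of 0.07 had the opposite sign to that of Gapdh. Of the marker lists, cartilage (Sox9, Col2a1, Acan, Matn1) summed to 2355 to 3343 in hindlimb and 4059 to 4697 in forelimb, with 3 of 3 tested genes lower in hindlimb. The joint genes Gdf5 and Sfrp2 summed to 3502 to 3978 in hindlimb and 4123 to 4192 in forelimb, with Gdf5 lower and Sfrp2 not. The 5 ectoderm genes summed to 2779 to 3309 in hindlimb and 3390.5 to 4449 in forelimb, with 3 of 5 lower. Of these, the keratins Krt14 and Krt5 had differences of -0.83 and -0.40, while Epcam had -0.01, Cdh1 0.01 and Trp63 0.09. The 3 endothelial genes summed to 1021 to 1131 in hindlimb and 1161 to 1241 in forelimb, with 3 of 3 lower. Sums of erythroid genes (16054 to 17719 in hindlimb, 14165 to 16038 in forelimb, 2 genes) and of nerve genes (391 to 459.7 in hindlimb, 345 to 378 in forelimb, 2 genes) lay above in hindlimb. Of the nerve genes, Nefl had a difference of 0.47 with overlapping limbs and Sox10 one of 0.0038. Tendon, muscle, macrophage, proximal limb and autopod sums overlapped. No marker was at 0, and Myf5 of the muscle list and Meis1 of the proximal list stayed under a signal of 100 on all A arrays. No marker of these other cell types passed an adjusted p of 0.05 in limma. No sum on the B array other than that of the hindlimb gene Tbx4 parted the limbs, and the Gapdh ratio did not either (exact permutation p = 0.8). Most of the A array sums could not be repeated there, since the joint, endothelial and erythroid genes had no named B probe set. The cartilage sum of the B array was Sox9 alone, and its ectoderm sum held 2 of the 5 genes, Trp63 and Epcam. The part of RNA quality or cell makeup in the values of the TGF-beta and activin genes was not tested.

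Among the TGF-beta ligands, Tgfb2 was measured by 3 probe sets on the A array. On 1423250_a_at its signal was 520.4, 449 and 407 in hindlimb 12, 14 and 26, against 697, 718 and 769 in forelimb 11, 13 and 25. The limbs did not overlap, and the gap between the lowest forelimb and the highest hindlimb sample was wider than the range within either limb. The difference was -0.64 ± 0.13, or 0.643-fold (limma unadjusted p = 0.000668, adjusted p = 0.300), the smallest p among all member probe sets. Only 0.906% of all tested probe sets on this design had a more negative difference.

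On 1450923_at the Tgfb2 signal was 518, 614 and 711 in hindlimb, against 697, 1049 and 930.0 in forelimb. Hindlimb 26 lay above forelimb 11 here, and the difference was -0.51 ± 0.17 (limma adjusted p = 0.685). On 1450922_a_at it was 407, 336 and 516 in hindlimb, against 599, 469 and 575 in forelimb, a difference of -0.37 ± 0.17 (adjusted p = 0.905; -0.23 without hindlimb 14), again with hindlimb 26 inside the forelimb range. The 3 probe sets thus had the same sign but ordered the hindlimb samples differently. Hindlimb 26 was lowest of the limb on the first and highest on the other two. The Tgfb2 probe set of the B array, 1438303_at, gave 608, 522 and 404 in hindlimb, against 541, 673 and 546 in forelimb, with overlapping limbs and a difference of -0.20 ± 0.19 (adjusted p = 0.934). Without hindlimb 26 this was -0.05, without forelimb 13 -0.10 and without hindlimb 12 -0.32.

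Tgfb1, the isoform best known from immune and vascular tissue, lay near the signal filter on the A array. Its signal on 1420653_at was 125, 162 and 93.8 in hindlimb, against 117, 169 and 178 in forelimb, and the limbs overlapped (-0.24 ± 0.21, limma adjusted p = 0.971). Single samples moved this difference, which was -0.08 without hindlimb 26, -0.15 without forelimb 25 and -0.39 without either hindlimb 14 or forelimb 11. Another Tgfb1 probe set, 1445360_at of the B array, gave 381, 375 and 274 in hindlimb, against 529, 384 and 396 in forelimb. The limbs did not overlap there, but hindlimb 12 and forelimb 13 were almost level, and the difference was -0.32 ± 0.22 (adjusted p = 0.917), or -0.18 without either hindlimb 26 or forelimb 11.

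Tgfb3, the isoform of palate and tendon development, was measured by 1417455_at on the A array and had 232, 251 and 337 in hindlimb, against 252, 299 and 292 in forelimb. The means were 274 ± 56.0 in hindlimb and 281 ± 25.1 in forelimb (SD, n = 3), and the difference of -0.05 ± 0.16 (limma adjusted p = 0.995) turned positive, 0.05, without hindlimb 12. On the A array the TGF-beta ligand genes thus all had negative differences, with Tgfb2 furthest from 0 and Tgfb3 near it. On the B array Tgfb1 (-0.32) was further from 0 than Tgfb2 (-0.20). The difference between the isoforms was not tested.

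Inhba, the beta A subunit of activin A, had signals of 364, 196 and 378 in hindlimb, against 437, 381 and 568 in forelimb on 1422053_at of the A array. The limbs did not overlap, although hindlimb 26 and forelimb 13 were within a few units of each other and hindlimb 14 lay far below the rest. The difference was -0.55 ± 0.23 (0.683-fold, limma unadjusted p = 0.0361, adjusted p = 0.863), and without hindlimb 14 it was -0.28. The Inhba probe set on the B array stayed below a signal of 100 on every array (52.1 to 75.7 in hindlimb, 45.7 to 65.0 in forelimb) and was not tested.

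Inhbb, the beta B subunit, had 2 probe sets on the A array, of which 1 was tested. On 1426859_at it had 215, 119.8 and 89.5 in hindlimb, against 129.7, 170.2 and 31.7 in forelimb. These samples spread widely within each limb, and the difference of 0.38 ± 0.40 (limma adjusted p = 0.978) became -0.13 without forelimb 25 and 0.71 without forelimb 13. The other probe set did not reach a signal of 100 on any array, with 42.0, 39.7 and 35.3 in hindlimb and 97.7, 56.1 and 61.0 in forelimb. Its hindlimb signals lay below the forelimb ones, the reverse of the lean of the tested probe set. A direction for Inhbb is therefore not given by these arrays.

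**Figure D2:**
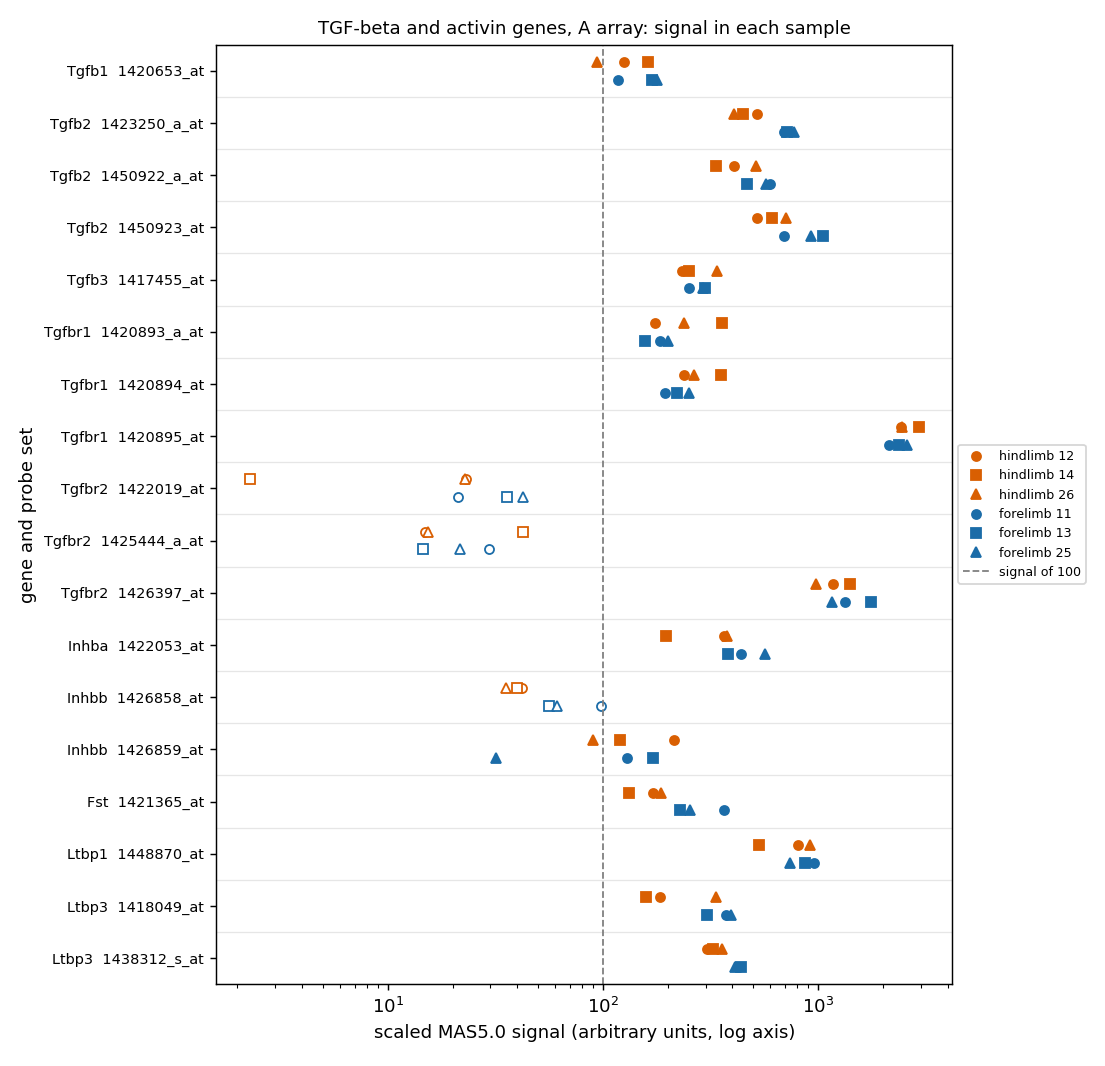
Scaled MAS5.0 signal (log axis) of the 18 member probe sets of the A array in each of 3 hindlimb samples (orange) and 3 forelimb samples (blue), with marker shapes for the sample numbers. Open markers are probe sets below the signal filter and the dashed line marks a signal of 100. The limbs are wholly apart for Tgfb2 (1423250_a_at), Inhba, Fst, Ltbp3 (1438312_s_at) and, below the filter, Inhbb (1426858_at).

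The differences of the receptor genes had different signs, none past the adjusted threshold, and whether the genes differed from each other was not tested. Tgfbr1, the type I receptor kinase, had 3 tested probe sets. On 1420895_at it had 2419, 2930.4 and 2456 in hindlimb and 2128, 2379 and 2596 in forelimb. The limbs overlapped and the difference was 0.13 ± 0.12 (limma adjusted p = 0.972). On the other two it had 174, 359 and 238 in hindlimb with 184, 156 and 199.9 in forelimb (0.40 ± 0.22, adjusted p = 0.940), and 237, 354 and 264 in hindlimb with 194, 221 and 252 in forelimb (0.31 ± 0.17, adjusted p = 0.940). Hindlimb 14 was the highest sample on all 3 Tgfbr1 probe sets, and without it the 3 differences, in the order given, were 0.05, 0.16 and 0.16. On these other probe sets the limbs overlapped through hindlimb 12.

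Tgfbr2, the type II receptor that binds the ligand first, reached the signal filter on 1 of its 3 probe sets. On 1426397_at it had 1173, 1407 and 983 in hindlimb, against 1334, 1763 and 1162 in forelimb. The forelimb samples reached higher and the limbs overlapped (-0.24 ± 0.18, limma adjusted p = 0.963). Without forelimb 13 the difference was -0.08 and without hindlimb 26 -0.12, and without hindlimb 14 or forelimb 25 it was -0.37 or -0.38. The other probe sets had signals of 2.29 to 42.7 in hindlimb and 14.6 to 42.4 in forelimb, and were not tested. No B array probe set used here was annotated to Tgfbr1 or Tgfbr2.

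Among the secreted regulators, Fst, the activin antagonist follistatin, had the most negative difference of all member probe sets. On 1421365_at of the A array its signal was 171, 132 and 186 in hindlimb, against 365, 229 and 254 in forelimb. All 3 hindlimb samples lay below all 3 forelimb samples, and forelimb 11 stood above the others. The difference was -0.68 ± 0.19 (0.625-fold, limma unadjusted p = 0.00513, adjusted p = 0.605), and without forelimb 11 it was -0.50. The Fst probe set of the B array, 1434458_at, gave 773, 1054 and 828 in hindlimb, against 1611, 819.9 and 1061 in forelimb. Forelimb 11 was again the highest sample and forelimb 13 lay inside the hindlimb range, so that the limbs overlapped (-0.34 ± 0.23, adjusted p = 0.915). Without forelimb 11 the B array difference was -0.08, and without forelimb 13 it was -0.56. Inhba and its antagonist Fst thus both had lower hindlimb than forelimb signals on the A array, neither past the adjusted threshold.

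Ltbp3, which is needed to secrete and store latent TGF-beta in skeletal tissue, had 2 tested probe sets on the A array. On 1438312_s_at its signal was 306, 325 and 356 in hindlimb, against 429.6, 436 and 411 in forelimb. The limbs were apart with a narrow spread in each, and the means were 329 ± 25.6 in hindlimb and 426 ± 13.1 in forelimb (SD, n = 3; difference -0.34 ± 0.13, limma adjusted p = 0.765). On 1418049_at it was 184, 159 and 335 in hindlimb, against 374, 305 and 393 in forelimb, a difference of -0.65 ± 0.23 (adjusted p = 0.719). Hindlimb 26 lay inside the forelimb range there, and without it the difference was -0.93 (adjusted p = 0.221). The B array cannot show whether this lean holds, since its Ltbp3 signals lay near the signal filter and the standard error was wide. Its tested Ltbp3 probe set had 112, 139 and 159 in hindlimb, against 91.4, 199 and 140.0 in forelimb (-0.02 ± 0.36, adjusted p = 0.998), and the other, annotated with the same accession, was above 100 on 2 arrays only.

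Ltbp1, the binding protein first found with latent TGF-beta, had 805, 533 and 917 in hindlimb, against 954, 866 and 739 in forelimb on 1448870_at of the A array. Hindlimb 14 was the lowest sample and the limbs overlapped (-0.20 ± 0.19, limma adjusted p = 0.972), and without hindlimb 14 the difference was 0.02. Its B probe sets had 364, 368 and 227 in hindlimb with 271, 381 and 312 in forelimb (-0.02 ± 0.25, adjusted p = 0.993), and 180.0, 239 and 27.9 in hindlimb with 111, 164 and 102 in forelimb (-0.04 ± 0.55, adjusted p = 0.995). Hindlimb 26 was the lowest sample on both, and the sign of each turned without it (0.18 and 0.63).

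**Figure D3:**
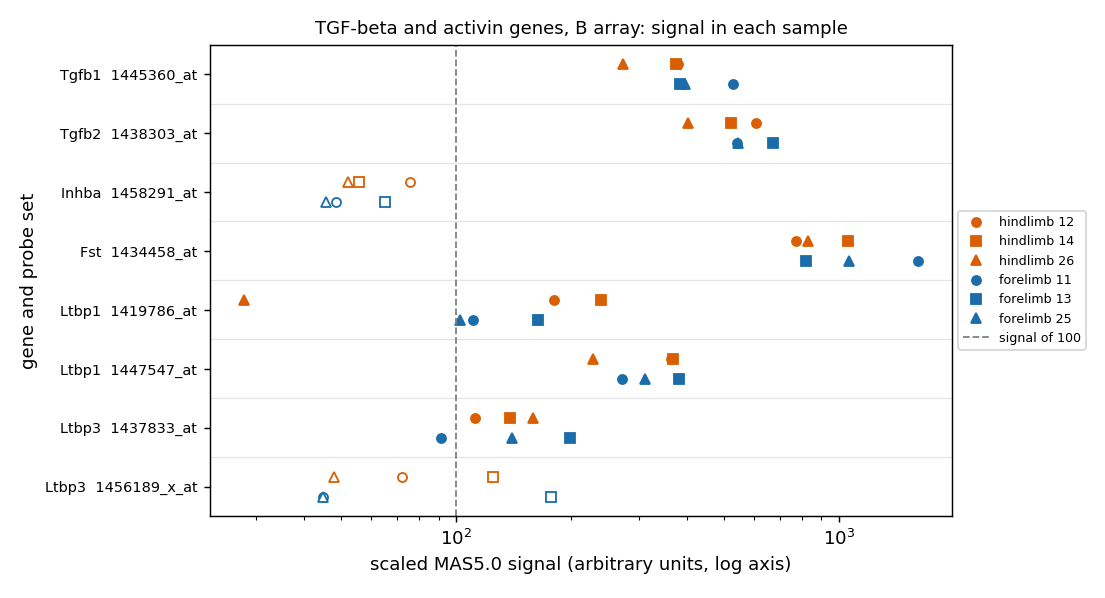
Scaled MAS5.0 signal (log axis) of the 8 member probe sets of the B array in each of 3 hindlimb samples (orange) and 3 forelimb samples (blue), with open markers below the signal filter and a dashed line at a signal of 100. The limbs overlap on every probe set other than that of Tgfb1, and forelimb 11 stands above the other samples for Fst.

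The highest and lowest samples varied among the members. Of the 15 tested probe sets on the A array, the highest sample was forelimb 11 for 3, forelimb 13 for 3, forelimb 25 for 4 and hindlimb 14 for 3, the last all of Tgfbr1. The lowest was hindlimb 14 for 5, hindlimb 12 for 3 and hindlimb 26 for 3. Over all tested probe sets, the highest sample was forelimb 11 on 18.0%, forelimb 13 on 13.6%, forelimb 25 on 17.3% and hindlimb 14 on 21.3%. The lowest was hindlimb 14 on 20.3%, hindlimb 12 on 20.3% and hindlimb 26 on 15.1%. Hindlimb 26 was lowest on 4 of 6 B array member probe sets, against 15.5% of all. Without forelimb 11, whose limb rests on its title on the A array, 0 of the 15 passed by limma, and the first Tgfb2 probe set had -0.67 (adjusted p = 0.487).

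The 61 other genes of the pathway that were followed fall into 6 lists by role, and 56 of them had a named probe set on either design. On the A array 65 probe sets of these genes were tested and 0 passed an adjusted p of 0.05 by limma (unadjusted p under 0.05 for 15 lower and 0 higher in hindlimb, with backgrounds of 3.69% and 1.85%). Their median difference was -0.14, against -0.24 for the members and -0.01 for all tested probe sets. The lists were chosen with earlier results of these samples known, and the list of responding genes includes Col1a1, whose low hindlimb values had been seen. Of 22 tested on the B array 0 passed (unadjusted 0 lower and 3 higher, with backgrounds of 3.21% and 2.33%). The B array medians were 0.04 for the pathway genes, -0.12 for the members and -0.01 for all. With a sample left out the first ranged from -0.0089 to 0.10 and the second from -0.30 to -0.0015. Some genes of the lists had several probe sets, so the counts of probe sets below are not counts of independent results. On each design 52.2% of all tested probe sets had lower hindlimb signals.

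Genes known to respond to TGF-beta had 17 of 20 tested A probe sets with lower hindlimb signals (background 52.2%, median -0.25), and 9 of the 20 had limbs apart in that direction (background 6.10%). These 20 probe sets belong to 12 genes and include both of Col1a1, whose low hindlimb values had been seen before the list was made. Col1a1, a chain of type I collagen, had 405, 596 and 443 in hindlimb, against 848, 915 and 852 in forelimb (-0.83 ± 0.15, limma adjusted p = 0.183). On its second probe set it had 118, 178 and 186 in hindlimb, against 264, 377 and 317 in forelimb (-0.87 ± 0.19, adjusted p = 0.332). The limbs were well apart on both. The next by p were a probe set of Ccn2 (-0.64 ± 0.16, limma adjusted p = 0.496) and one of Tgfbi (-0.34 ± 0.11, adjusted p = 0.632), with limbs apart on each. The other Tgfbi probe sets had -0.34, -0.39 and -0.23. The 2 probe sets apart in the other direction (background 4.94%) were those of Col3a1, a type III collagen chain (0.32 and 0.17), which is named here after its values were seen. The B array list did not show this: 3 of 4 tested probe sets were higher in hindlimb (median 0.32). Itga5, the fibronectin receptor subunit, had 229, 234 and 261 in hindlimb there, against 37.1, 161 and 75.7 in forelimb (1.27 ± 0.41, adjusted p = 0.853), but its other B probe set had -0.23, and the A array gave -0.13 and 0.07 for this gene. Col1a2, the other type I collagen chain, had 0.57 ± 0.21 on the B array (adjusted p = 0.894). Its A array values were -0.34 and -0.36, so that the designs did not give the same sign.

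Extracellular and receptor-level inhibitors had 7 of 7 tested A probe sets lower in hindlimb (background 52.2%, median -0.25), but these belong to only 4 genes. The limbs were apart in that direction for 4 of the 7 (background 6.10%). Bgn, the matrix proteoglycan biglycan, which binds TGF-beta, had 621, 645 and 642 in hindlimb, against 806, 789 and 792 in forelimb (-0.31 ± 0.12, limma adjusted p = 0.765). A second Bgn probe set gave 226, 246 and 266 in hindlimb, against 392, 298 and 297 in forelimb (-0.37 ± 0.15, adjusted p = 0.863). One more Bgn probe set had -0.34. The limbs were apart on each. Dcn, the related proteoglycan decorin, was the single tested probe set of this list on the B array (-0.78 ± 0.43, adjusted p = 0.904), with overlapping limbs, and had -0.14 on the A array.

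The genes of latency and activation had a median of -0.07 on the A array, with 8 of 13 tested probe sets lower. Thbs1, thrombospondin 1, which can free TGF-beta from its latent complex, had 552, 608 and 587 in hindlimb, against 984, 750.4 and 678 in forelimb (-0.43 ± 0.15, limma adjusted p = 0.719). Its other probe set gave 242, 347 and 336 in hindlimb, against 446, 405 and 377 in forelimb (-0.39 ± 0.16, adjusted p = 0.855). The limbs were apart on both Thbs1 probe sets. Of 3 tested on the B array 2 were lower, with Fbn2, a microfibril protein, at -0.21 (limbs apart, adjusted p = 0.906) and the integrin subunit Itgav at 0.12 (adjusted p = 0.983). On the A array Fbn2 had -0.24 and Itgav -0.22, -0.10 and 0.02, all with overlapping limbs.

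Other receptors and coreceptors had 6 of 6 tested A probe sets, of 5 genes, higher in hindlimb, where 7328 of all 15338 tested were higher. Their differences lay near 0 (median 0.07), and the median was -0.04 without hindlimb 26. Acvr2a, a type II activin receptor, had 1164, 968 and 1209 in hindlimb, against 879, 898 and 1061 in forelimb (0.23 ± 0.14, limma adjusted p = 0.951), and 0.11 on its second probe set. Of 4 tested on the B array 3 were higher. Tgfbr3, the coreceptor betaglycan, had 1435, 2158 and 1759 in hindlimb, against 948, 1493 and 1374 in forelimb (0.48 ± 0.20, adjusted p = 0.894), with 0.07 on the A array, and Acvr2b, another type II receptor, had 0.19, with 0.04 on the A array.

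Intracellular mediators and brakes were mixed, with 8 of 14 lower on the A array (median -0.07) and 5 of 10 lower on the B array (median -0.01). Ski, a nuclear repressor of Smads, had 669.8, 959.7 and 721 in hindlimb, against 939, 1091 and 1038 in forelimb, with overlap through hindlimb 14 (-0.38 ± 0.15, limma adjusted p = 0.805). Ski had -0.17 on the B array. Pmepa1, a membrane protein that restrains Smad signaling, had 99.3, 64.4 and 122 in hindlimb, against 149, 143 and 135 in forelimb (-0.48 ± 0.21, adjusted p = 0.882). Its other probe set had -0.44, with overlapping limbs. Tgif2, a Smad corepressor, had 0.41 and the inhibitory Smad7 had 0.62 on the B array, both with overlapping limbs, while Smad7 had -0.11 and Tgif2 0.07 on the A array. Of the other ligands on the A array, 3 of 5 tested probe sets were lower, and their median of -0.07 turned positive without hindlimb 12 (0.10) or forelimb 25 (0.06), with Inhbe at -0.18 and Gdf11, a relative of myostatin, at -0.18, both overlapping.

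**Figure D4:**
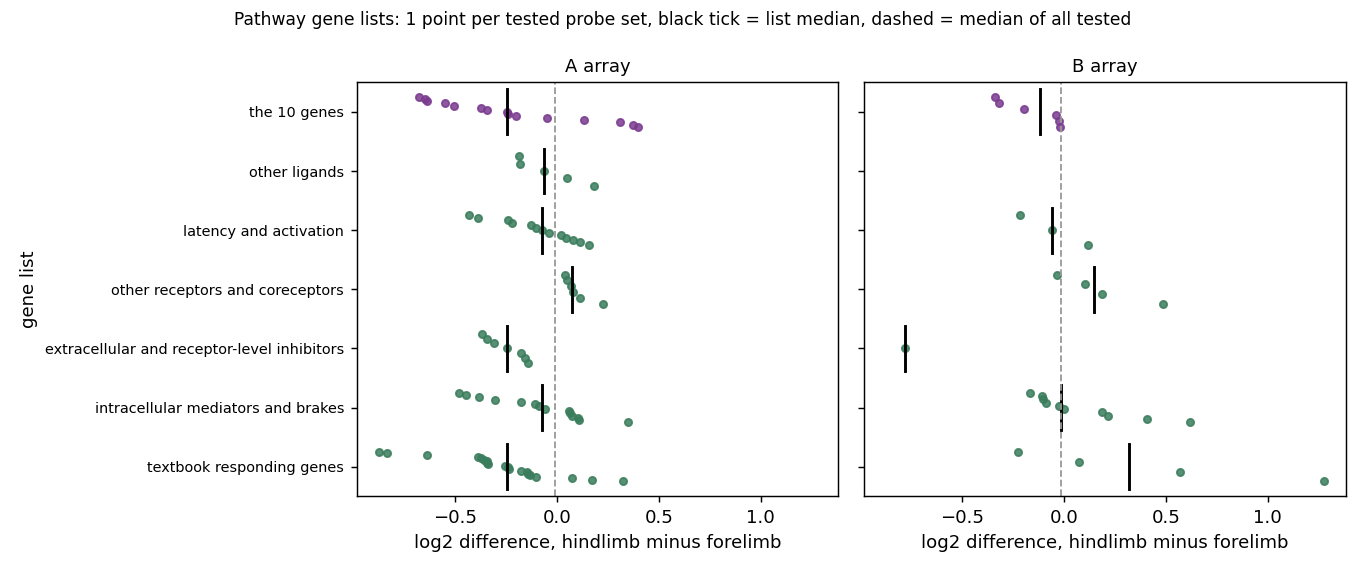
Log2 differences, hindlimb minus forelimb, of each tested probe set of the 10 genes (purple) and of the 6 lists of other pathway genes (green) on the A and the B array. Black ticks are list medians and the dashed line is the median of all tested probe sets. On the A array the medians of the 10 genes (-0.24), the inhibitors (-0.25) and the responding genes (-0.25) lie left of the dashed line, and on the B array the responding genes lie right of it (0.32).

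The profile of the first Tgfb2 probe set over the 6 A arrays was most like those of Rnf103, a ubiquitin ligase (Pearson r = 0.993), Txndc17, a thioredoxin-like protein (r = 0.991), and Arl16, a small GTPase-like protein (r = 0.986). These are given as a description over 6 arrays that share the limb contrast, and 41 named probe sets of other genes had r over 0.95. Their differences were smaller than that of Tgfb2, at -0.16, -0.16 and -0.18, none past the threshold.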

How the data were processed

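The authors deposited intensities, which the labels call MAS5.0 signal (no such note for forelimb 11 on the A array), on a linear scale. Their 2% trimmed mean was 350.1 for the A arrays and 70.0 for the B arrays. No software version or detection call is given in the sources used here. Signals were rescaled to a trimmed mean of 500 per array before log2(signal + 32) was taken. This stretches dim B signals, so levels were not compared between designs or probe sets. Control probe sets (64 per design) were not tested. Probe sets were named from the platform annotation, with symbols brought up to date by gene ID in RefSeq's gene table (20393 A and 14674 B probe sets had 1 symbol). Hindlimb was compared with forelimb with limma 3.58.1 under R 4.3.3, using moderated statistics with an intensity trend, two-sided p-values adjusted by Benjamini-Hochberg within each design, and a threshold of 0.05, and the fit was tested on simulated data. Figures used matplotlib 3.10.9. Precision is limited by how many arrays there are, and standard errors had a median of 0.16 for A and 0.23 for B. The members and lists were chosen with earlier results of these data known. The members were all named. From each pathway list the 2 probe sets of smallest p on each design were named, since none passed, and others of the same genes beside them. For the responding genes the next 2 by p on the A array were named as well. Of the pathway genes, 5 had no named probe set and were not analysed here. The alternatives tried were other pseudocounts (1 and 100), dropping the filter or raising it to 200, quantile normalization, the deposited scale, a variance prior without trend, array weights, consecutive sample numbers as a block, joint adjustment of the designs, and each sample left out.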

Additional observations from a re-analysis of the deposited data

How the results depend on the processing

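No member probe set passed an adjusted p of 0.05 by limma under any of the 16 alternatives on either design. At an unadjusted p under 0.05 these gave 4 to 8 member probe sets of the A array, and 0 of the B array except 1 without forelimb 13. The counts over all tested probe sets moved too. On the A array they were 850 in the main fit and 1149 with consecutive numbers as a block (8 members). They were 619 without forelimb 25 and 975 without hindlimb 14 (4 members each). On the B array they were 949 in the main fit and 1088 without forelimb 13. Of 331 differences of the 21 tested member probe sets under an alternative, 317 kept their direction. The 14 that turned belonged to Tgfb3, Inhbb, Ltbp1 and the B array Ltbp3 probe set. With a sample left out, Tgfb3 ranged from -0.19 to 0.051, Inhbb from -0.13 to 0.71 and Ltbp1 on the A array from -0.36 to 0.017. Ltbp1 on the B array ranged from -0.46 to 0.63 (1419786_at) and from -0.13 to 0.18 (1447547_at), and Ltbp3 from -0.25 to 0.20. Quantile normalization gave 0.013 and 0.041 for these Ltbp1 probe sets and 0.031 for Ltbp3, and 1419786_at had 0.038 with a pseudocount of 100 and 0.052 on the deposited scale. The median of the members on the A array was -0.30 with a pseudocount of 1, -0.29 without the filter, -0.36 with a filter at 200, -0.29 with array weights and -0.36 to -0.19 with a sample left out. The responding genes on the B array had a median of 0.077 without the filter, 0.57 with a filter at 200 and 0.17 to 0.60 with a sample left out, and the latency genes there -0.28 to 0.034. The calls over all probe sets of the A array numbered 1 without the filter, 14 with array weights and 3 to 9 with a sample left out. For the B array they numbered 1 without the filter, 0 without the trend (limma, 871 at an unadjusted p under 0.05) and 1 to 4 with a sample left out. The labels do not pair the samples. With consecutive numbers as a replicate block the A array had 8 calls and the B array 4, 0 of them members. Deviations of consecutive numbers correlated at 0.076 to 0.21 for the A arrays and 0.0022 to 0.048 for the B arrays, and each hindlimb sample matched its consecutive number best on the A array only. The limb difference on the B array of the log2 3′ to 5′ ratio ranged from -0.020 to 0.070 for Gapdh and from -0.038 to 0.018 for beta-actin with a sample left out, and that on the A array from -0.12 to -0.044 (without forelimb 13) for Gapdh and from 0.044 to 0.12 for beta-actin. The cause of these shifts was not tested.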
